A study of Mus musculus with 22 samples.

Results

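Aquaporins, ion pump subunits, a sodium/proton exchanger and a chloride channel, grouped as genes of fluid transport into the blastocoel, the fluid-filled cavity of the blastocyst, were examined in RNA-seq libraries of mouse embryos. They are 9 genes chosen by symbol, Aqp3, Aqp8, Aqp9, Aqp11, Atp1b1, Atp1b3, Atp12a, Slc9a3 and Cftr, and each symbol matched 1 of the 55335 genes in the table. Embryos were of the B6D2F1 background, 15 to a library, and were harvested after hCG injection at 43 to 44 h as 2-cell embryos, at 78 h as morulae and at 94 h as blastocysts. In the H2A.Z KD groups, zygotes had received about 10 pl of a mix of siRNAs at 20 µM against H2A.Z, a variant of histone H2A. The other groups are labelled control. Controls for the quantitative PCR of the study were not injected, and whether the control embryos of these libraries were is not given in the sources used here. How KD embryos were chosen for the libraries labelled blastocyst is not given either, so whether all of them had a cavity is unknown. The study reported that KD embryos formed blastocysts less often than control embryos. Control libraries numbered 4 at every stage, while KD libraries numbered 3 for 2-cell embryos, 3 for morulae and 4 for blastocysts. They were made by Smart-seq2, which amplifies polyadenylated RNA, here over 16 to 18 cycles.

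The cavity forms when the outer cells of the embryo, the trophectoderm, become a sealed epithelium that carries ions and water inwards. The Na/K-ATPase, a pump made of a catalytic alpha and a glycosylated beta subunit, sets up a sodium gradient across this epithelium. Sodium enters the cells through exchangers and channels, water follows through aquaporins, and tight junctions hold the fluid in.

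Levels are given as FPKM, the fragments of a gene scaled to its length and to the library total, so they can be set side by side between genes. A gene was tested where it reached an FPKM of 1 in 3 or more libraries of a fit, and 1 fit of 4 groups served all comparisons of morulae with blastocysts. A member that passes this filter only through the group where it is high has to differ, so counts and medians of members are descriptions. Differences are on the log2(FPKM + 1) scale, which understates the change of genes with low FPKM, and "rose" or "fell" stands for an adjusted p under 0.05 over all genes tested. The number of reads behind a value is unknown.

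The knockdown target H2afz was looked at first. At the 2-cell stage it measured 1244, 1236, 905 and 1178 FPKM in control replicates 1, 2, 4 and 5 and 415, 139 and 112 in KD replicates 1, 2 and 4. It lay at 1158 to 1511 FPKM in control morulae against 25.7 to 30.3 in KD morulae, and at 1945 to 2656 in control blastocysts against 53.2 to 67.2 in KD blastocysts. Every KD library was below every control library of its stage.

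Atp1b3, the beta 3 subunit of the Na/K-ATPase, had the highest mean of the 9 genes at each stage of control embryos. Its level was 84.8 ± 18.9 FPKM (SD, n = 4) at the 2-cell stage, 84.6 ± 8.37 (SD, n = 4) in morulae and 65.0 ± 13.9 (SD, n = 4) in blastocysts. In control blastocysts Atp1b1 followed at 33.4 ± 8.702 FPKM (SD, n = 4), then Aqp3 at 26.1 ± 12.3 (SD, n = 4) and Aqp9 at 24.5 ± 5.09 (SD, n = 4). The libraries of Atp1b1, Aqp3 and Aqp9 overlapped, so these neighbours did not differ beyond their spread. Aqp8 and Atp12a came next, each without overlap with its neighbours, and Aqp11, Cftr and Slc9a3 stayed under 1 FPKM in all blastocyst libraries.

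**Figure D1:**
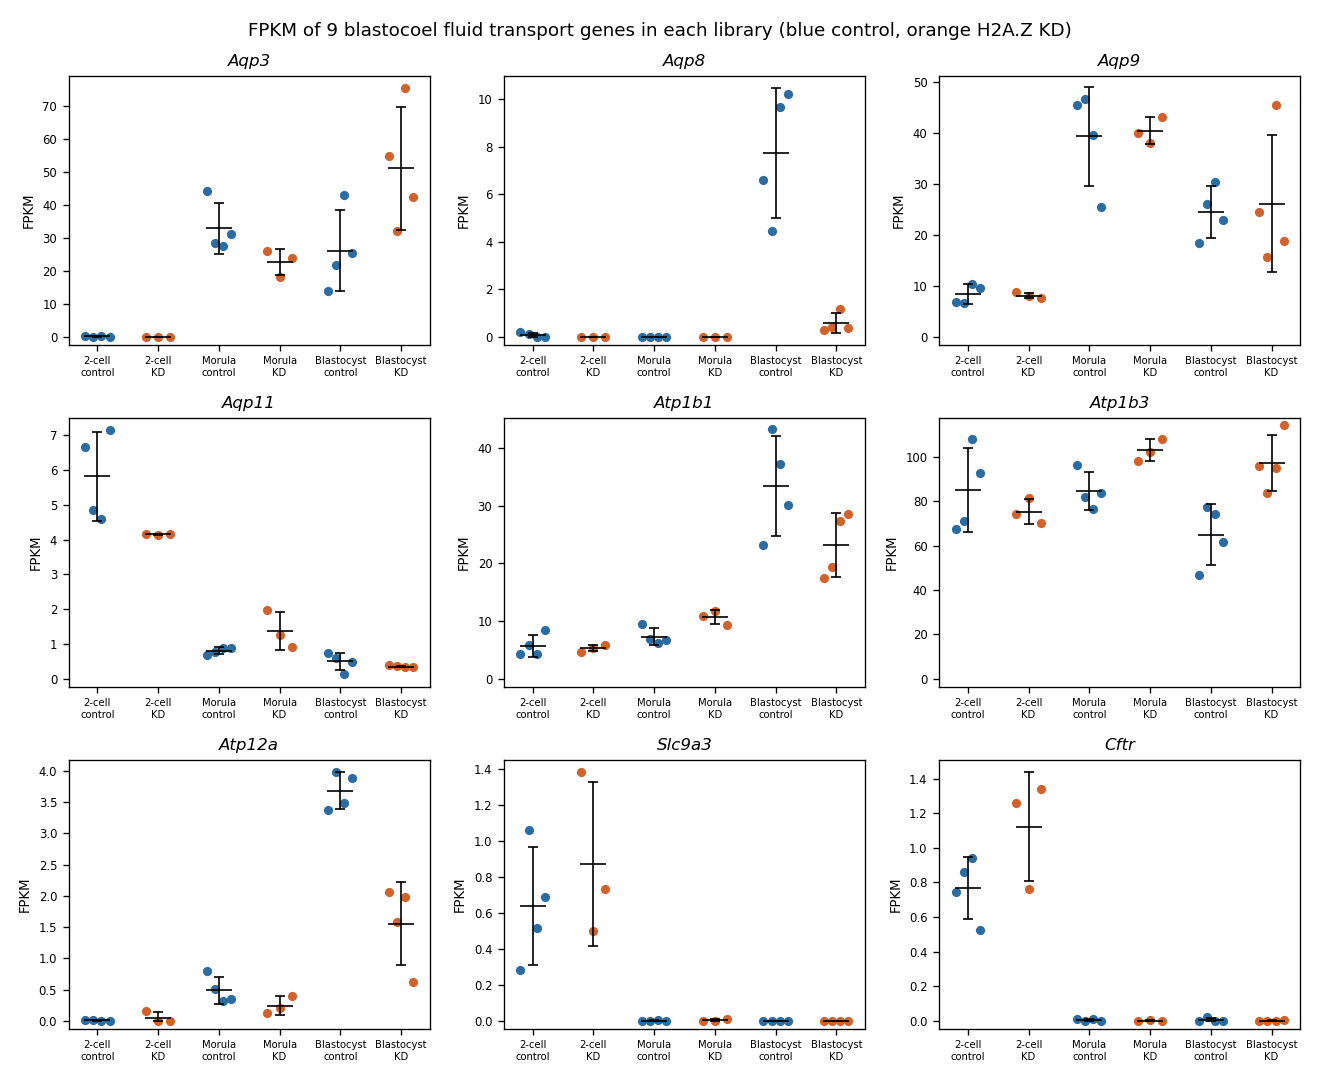
FPKM of the 9 genes (vertical axis, linear, 1 scale per gene) in each library of the 6 groups, blue for control and orange for H2A.Z KD, with the mean as a long bar and 1 SD as whiskers that end at 0 where they would pass it. For Aqp8 the KD blastocysts, at 0.304 to 1.19 FPKM, lie below all control blastocysts, at 4.44 to 10.2.

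From control 2-cell embryos to control morulae, Aqp3 and Aqp9 rose and Aqp11 fell. Thus 2 of the 5 members that passed the filter rose, beside 43% of the 13655 genes tested, and 1 fell, beside 40.3%. Aqp3, a channel for water and glycerol, measured 0.304, 0.0294, 0.147 and 0.119 FPKM in control 2-cell embryos 1, 2, 4 and 5 and 44.2, 28.5, 27.5 and 31.3 in control morulae 1, 2, 7 and 8, a log2 difference of 4.82 (SE 0.16, adjusted p = 2.09e-10). Aqp9, a channel for water and small neutral solutes, lay at 6.74 to 10.4 FPKM in 2-cell embryos and at 25.6 to 46.7 in morulae, a log2 difference of 2.08 (SE 0.19, adjusted p = 7.39e-07). Aqp11, an aquaporin of intracellular membranes, fell by 1.88 on the log2 scale (SE 0.18, adjusted p = 9.76e-07), with 4.61 to 7.15 FPKM in 2-cell embryos and 0.681 to 0.900 in morulae. The stages did not overlap for any of these 3 genes, and Aqp3 and Aqp11 passed the filter only through the stage where they were high. Atp1b1 had a log2 difference of 0.32 (SE 0.20, adjusted p = 0.156), which passed only without control 2-cell replicate 5 among the libraries left out (adjusted p = 0.0436). For Atp1b3 it was 0.010 (adjusted p = 0.952), and -0.69 with quantile normalization (adjusted p = 0.00301).

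The step from morula to blastocyst, during which the cavity forms, was compared next in control embryos. Aqp8, Atp1b1 and Atp12a rose, 3 of the 6 members tested, beside 28.2% of the 12727 genes tested, and Aqp9 and Atp1b3 fell, beside 27.4%. Aqp8, a channel for water and ammonia, was listed at 0 in all 7 morula libraries and measured 6.59, 4.44, 9.67 and 10.2 FPKM in control blastocysts 1, 4, 5 and 6. Its fitted difference of 3.00 (SE 0.19, adjusted p = 1.27e-09) depends on the pseudocount and is no bound. Atp1b1, the beta 1 subunit of the Na/K-ATPase, measured 9.45, 6.90, 6.19 and 6.76 FPKM in control morulae 1, 2, 7 and 8 and 23.1, 43.2, 37.2 and 30.1 in control blastocysts 1, 4, 5 and 6. All blastocysts lay above all morulae, and the log2 difference was 1.98 (SE 0.17, adjusted p = 4.39e-08). Atp12a, the alpha subunit of the nongastric H/K-ATPase, lay at 0.317 to 0.790 FPKM in morulae and at 3.38 to 3.97 in blastocysts, again without overlap. Its log2 difference was 1.62 (SE 0.18, adjusted p = 8.01e-07), and the highest value among the alternative settings was 2.69. Aqp8 and Atp12a had passed the filter only through blastocysts, so they had to differ, and of the rises only that of Atp1b1 bears on the 28.2%.

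Aqp9 fell by 0.69 on the log2 scale (SE 0.23, adjusted p = 0.0168), a call that was lost without control morula replicate 2 (adjusted p = 0.0556) and with no filter on low FPKM (adjusted p = 0.0581). Atp1b3 fell by 0.44 (SE 0.14, adjusted p = 0.0142). This call was lost without control blastocyst replicate 1 (adjusted p = 0.0525) and with the replicate number as a block (adjusted p = 0.117). Aqp3 had a log2 difference of -0.44 (SE 0.25, adjusted p = 0.141), and without control blastocyst replicate 5 it was -0.68 (adjusted p = 0.0189). With the block it was -0.86 (adjusted p = 0.0378).

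The effect of the KD was examined within each stage. In 2-cell embryos limma called 0 of the 4 members tested and 0% of the 12160 genes tested as higher, and likewise 0% as lower, while 701 genes had an unadjusted p under 0.05. H2afz itself had a log2 difference of -2.53 and an adjusted p of 0.543, the smallest in this comparison. Aqp11 measured 6.66, 4.85, 4.61 and 7.15 FPKM in control replicates 1, 2, 4 and 5 and 4.17, 4.13 and 4.16 in KD replicates 1, 2 and 4. Its KD libraries lay below all control libraries (log2 difference -0.33, adjusted p = 0.8286). The log2 differences of Aqp9, Atp1b1 and Atp1b3 were 0.036, -0.0047 and -0.080.

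Slc9a3, an exchanger of sodium for protons at apical membranes, and Cftr, a chloride channel, passed the filter in no comparison and were at their highest at the 2-cell stage. Slc9a3 measured 0.281, 1.06, 0.518 and 0.692 FPKM in control 2-cell embryos 1, 2, 4 and 5 and 1.38, 0.499 and 0.737 in KD embryos 1, 2 and 4. Cftr measured 0.746, 0.862, 0.939 and 0.523 FPKM in the same control embryos and 1.26, 0.761 and 1.34 in the KD embryos. Control and KD libraries overlapped for both. In morulae and blastocysts Slc9a3 reached at most 0.00909 FPKM and Cftr at most 0.0216.

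In KD morulae Atp1b1 rose, 1 of the 4 members tested, beside 4.23% of the 10989 genes tested, and 0 members fell, beside 9.04%. KD morulae 1, 2 and 6 held 10.8, 11.8 and 9.38 FPKM of Atp1b1, and the first 2 of them lay above all control morulae. The log2 difference was 0.61 (SE 0.15, adjusted p = 0.0280). The call was lost with FPKM as deposited (adjusted p = 0.0802) and with no filter on low FPKM (adjusted p = 0.0608). With the replicate number as a block it was lost as well (adjusted p = 0.101). It was also lost without control replicate 2, 7 or 8 or KD replicate 1 or 2, where the adjusted p reached 0.125. Of all genes called in morulae, 31.9% were higher in KD embryos, and with FPKM as deposited 15.3% were.

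Atp1b3 measured 96.3, 81.9, 76.5 and 83.6 FPKM in control morulae 1, 2, 7 and 8 and 98.2, 102 and 108 in KD morulae 1, 2 and 6. The groups did not overlap, with a log2 difference of 0.41 (SE 0.13, adjusted p = 0.0669), which passed with a batch of replicates 1 and 2 against the higher numbers (adjusted p = 0.0361). Aqp3 measured 26.0, 18.3 and 23.8 FPKM in KD morulae 1, 2 and 6, below all control morulae, with a log2 difference of -0.38 (SE 0.17, adjusted p = 0.164). That of Aqp9 was 0.20 (adjusted p = 0.514). Among members under the filter, Aqp11 measured 1.99, 1.26 and 0.904 FPKM in KD morulae, above the 0.681 to 0.900 of control morulae, and Atp12a lay at 0.121 to 0.405 against 0.317 to 0.790.

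In KD blastocysts the members moved in both directions. Aqp3 and Atp1b3 rose, 2 of the 6 members tested, beside 16.7% of the 11828 genes tested, and Aqp8 and Atp12a fell, beside 19.8%. Aqp8 passed the filter only through the control, so it had to differ and does not bear on the 19.8%. The median log2 difference was -0.24 over the 6 members tested and 0.0047 over all genes tested. With an added threshold of 1 on the size of the log2 difference, 1 member was called, Aqp8. Whole embryos were measured, so fewer cells of a type and less RNA per cell cannot be told apart.

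Among the aquaporins, Aqp8 measured 0.304, 0.424, 1.19 and 0.386 FPKM in KD blastocysts 1, 4, 5 and 6, against 4.44 or more in each control blastocyst. All KD libraries were low, so that Aqp8 passed the filter only through the control, and their mean was 7.44% of the control mean. The log2 difference was -2.44 (SE 0.24, adjusted p = 2.60e-05), and with any 1 library left out it lay between -2.66 and -2.31. Aqp3 measured 14.0, 21.9, 43.1 and 25.5 FPKM in control blastocysts 1, 4, 5 and 6 and 55.0, 32.1, 75.3 and 42.3 in KD blastocysts of the same numbers. KD replicates 1 and 5 lay above all control libraries, and the other two overlapped with them. The log2 difference was 0.99 (SE 0.28, adjusted p = 0.0155), and with no filter on low FPKM the call was lost (adjusted p = 0.0939). Aqp9 measured 18.4, 26.1, 30.5 and 22.9 FPKM in the control and 24.6, 15.7, 45.6 and 18.8 in the KD blastocysts. The groups overlapped, and the 95% interval of the log2 difference ran from -0.53 to 0.55 (adjusted p = 0.989).

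Among the pump subunits, Atp1b3 measured 46.7, 77.2, 74.3 and 61.8 FPKM in control blastocysts 1, 4, 5 and 6 and 95.9, 83.6, 94.8 and 114 in KD blastocysts of the same numbers. All KD libraries were above all control libraries, with a log2 difference of 0.60 (SE 0.17, adjusted p = 0.0152), and the call was lost without KD replicate 6 (adjusted p = 0.0544). Atp12a measured 3.38, 3.97, 3.49 and 3.88 FPKM in the control and 2.06, 1.57, 1.98 and 0.616 in the KD blastocysts. Here all KD libraries were below all control libraries, and Atp12a fell by 0.90 on the log2 scale (SE 0.21, adjusted p = 0.00563). Atp1b1 measured 17.4, 19.4, 27.3 and 28.5 FPKM in KD blastocysts, and replicates 1 and 4 lay below the lowest control library. Its log2 difference of -0.49 (SE 0.19, adjusted p = 0.0627) passed without control replicate 1 (adjusted p = 0.0331) or KD replicate 6 (adjusted p = 0.0493), and with a batch of replicate 1 against the higher numbers (adjusted p = 0.0375).

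**Figure D2:**
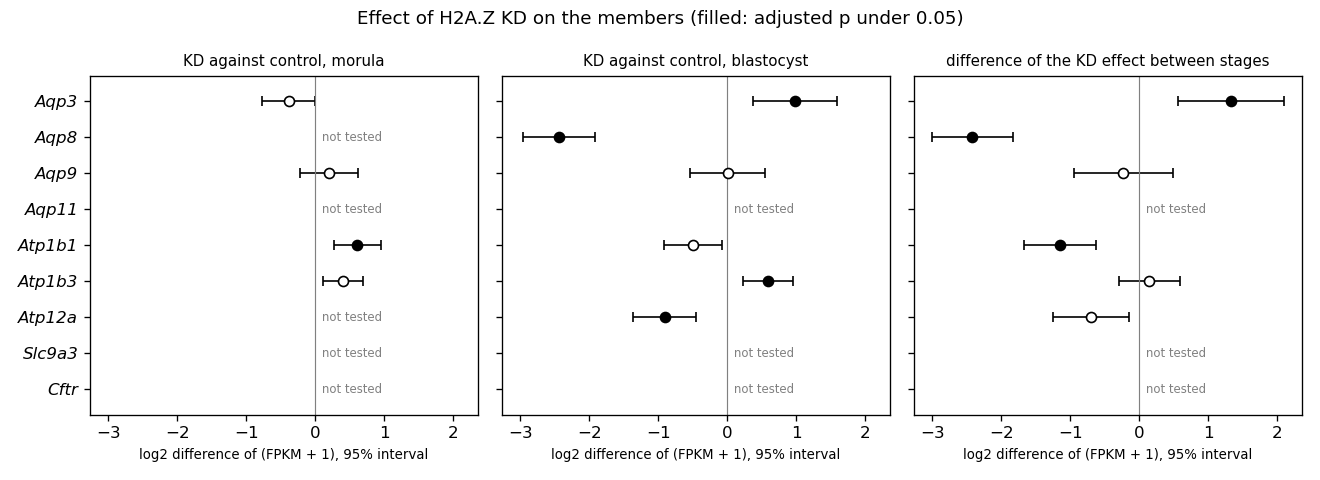
Log2 difference of KD against control embryos on the log2(FPKM + 1) scale (horizontal axis) for each gene in morulae, in blastocysts, and as the blastocyst difference minus the morula difference; bars are 95% intervals, and filled points have an adjusted p under 0.05. In blastocysts Aqp8 has the lowest value of the 6 genes tested, -2.44, and Aqp3 the highest, 0.99.

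Whether the KD effect differed between stages was tested as an interaction over morulae and blastocysts. It was higher in blastocysts for Aqp3, 1 of the 6 members tested, beside 5.43% of the 12727 genes tested, and lower for Atp1b1, beside 6.32%. The interaction was 1.33 on the log2 scale for Aqp3 (SE 0.37, adjusted p = 0.0259). It was -1.14 for Atp1b1 (SE 0.25, adjusted p = 0.00720), and this call was lost with the replicate number as a block, at -1.02 (adjusted p = 0.0583). Aqp8, listed at 0 in all morulae, entered the fit only through control blastocysts, so its interaction of -2.42 (SE 0.28) restates its difference within blastocysts and is given without a call. The call of Aqp3 was lost with no filter on low FPKM (adjusted p = 0.104) and without control morula replicate 1, KD morula replicate 2, control blastocyst replicate 1 or 4 or KD blastocyst replicate 1, where the adjusted p reached 0.0752. For Atp12a, Aqp9 and Atp1b3 the adjusted p was 0.0939, 0.707 and 0.685. With FPKM as deposited the median interaction of all genes was 0.11, against -0.0086 after scaling.

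From KD morulae to KD blastocysts, Aqp3, Atp1b1 and Atp12a rose, beside 19.6% of the genes tested, and Aqp9 fell, beside 18.5%. Atp12a, under 1 FPKM in all morulae, passed the filter only through blastocysts, so it had to differ and does not bear on the 19.6%. Aqp8 entered this comparison only through the control blastocysts of the fit, since 1 of the 7 KD libraries reached 1 FPKM. Its log2 difference of 0.58 (SE 0.21) is given as a value without a call. The log2 difference was 0.84 for Atp1b1 (SE 0.18, adjusted p = 0.00169) and 0.92 for Atp12a (SE 0.19, adjusted p = 0.00118). Among the alternative settings, the highest value was 2.51 for Aqp8 and 2.06 for Atp12a. For Aqp3 it was 0.89 (SE 0.27, adjusted p = 0.0149). The call was lost without KD morula replicate 2 (adjusted p = 0.0789) and with no filter on low FPKM (0.0605). With the replicate number as a block it was lost too, at 0.62 (adjusted p = 0.0885). For Aqp9 it was -0.92 (SE 0.25, adjusted p = 0.00752), and the call was lost with FPKM as deposited (0.0547). Of all genes called, 51.4% were higher in blastocysts, against 67.2% with FPKM as deposited, where the median of all genes moved from -0.00090 to 0.15. The comparisons between stages and those of KD against control share libraries, so they are not independent.

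Other genes of fluid transport were taken from lists. The counts of these lists and of the markers of cell types stand beside 16.7% of all genes tested that rose and 19.8% that fell in KD blastocysts, and 4.23% and 9.04% in KD morulae. Of 8 other aquaporins, 0 passed the filter in morulae or blastocysts. Aqp7, named after its values were seen, had a level of 0.825 to 1.04 FPKM in control blastocysts, above the 0.0821 to 0.173 of KD blastocysts.

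Of 15 other pump subunits and regulators, 4 were tested in blastocysts and 3 fell in KD embryos, all of the FXYD family of small membrane proteins that regulate the Na/K-ATPase. Fxyd4 measured 67.4, 31.7, 40.4 and 42.7 FPKM in control blastocysts 1, 4, 5 and 6 and 19.2, 16.8, 13.2 and 22.9 in KD blastocysts of the same numbers. The groups did not overlap, and Fxyd4 fell by 1.25 on the log2 scale (SE 0.27, adjusted p = 0.00363). Fxyd5 fell by 1.49 (SE 0.25, adjusted p = 0.000770), and Fxyd6, named after its values were seen, fell by 1.22 (SE 0.19, adjusted p = 0.000510). From control morulae to control blastocysts, the log2 difference was 1.73 for Fxyd4, 1.72 for Fxyd5 and 1.97 for Fxyd6, and Fxyd5 and Fxyd6 had passed the filter only through blastocysts. Within blastocysts these 2 passed it only through the control, where they were high. In morulae 2 of the list were tested and 0 passed.

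Of 11 other exchangers and their scaffold proteins, 4 were tested in blastocysts and 0 passed, with a median log2 difference of -0.038. The scaffold gene Slc9a3r1 had a log2 difference of -0.61 (SE 0.23, adjusted p = 0.0514). In morulae 1 of 4 tested fell, Slc9a3r2, by 0.77 on the log2 scale (SE 0.17, adjusted p = 0.0158), with 3.86 to 4.31 FPKM in control and 1.40 to 2.00 in KD morulae.

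Of 15 other channels and cotransporters, 3 were tested in blastocysts, and all 3 rose in KD embryos. Slc12a2, the sodium-potassium-chloride cotransporter, measured 1.25, 1.24, 1.39 and 1.39 FPKM in control blastocysts 1, 4, 5 and 6 and 7.06, 3.39, 7.54 and 3.43 in KD blastocysts of the same numbers. All KD libraries were above all control libraries, with a log2 difference of 1.38 (SE 0.23, adjusted p = 0.000725). Slc12a7, a potassium-chloride cotransporter gene, had a log2 difference of 1.62 (SE 0.19, adjusted p = 7.79e-05), and the chloride channel gene Clcn2, named after its values were seen, of 0.54 (SE 0.14, adjusted p = 0.0107). Slc12a7 and Clcn2 passed the filter in blastocysts only through KD embryos, where they were high. From control morulae to control blastocysts Slc12a2 fell by 2.56 on the log2 scale. The differences of Slc12a7 and Clcn2 were -2.18 and -1.08, and of these 2 control groups only morulae, where both were high, reached the filter. In morulae 1 of 3 tested rose in KD embryos, Slc12a2, with a log2 difference of 0.59 (SE 0.16, adjusted p = 0.0343).

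**Figure D3:**
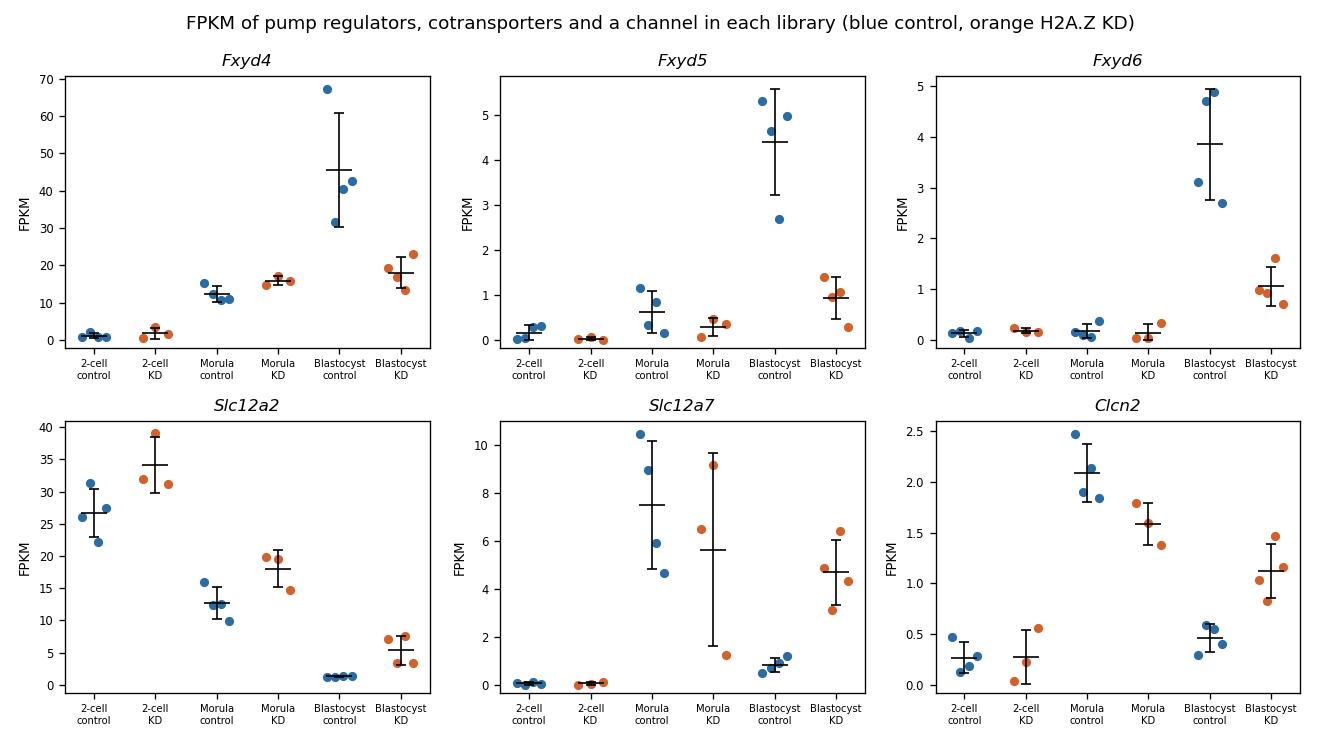
FPKM (vertical axis, linear, 1 scale per gene) of Fxyd4, Fxyd5, Fxyd6, Slc12a2, Slc12a7 and Clcn2 in each library of the 6 groups, blue for control and orange for H2A.Z KD, with the mean as a long bar and 1 SD as whiskers that end at 0 where they would pass it. The KD blastocysts lie below all control blastocysts for the 3 Fxyd genes and above them for the other 3.

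Of 12 tight junction and adhesion genes, all tested in blastocysts, 1 fell in KD embryos, the claudin gene Cldn6, by 0.60 on the log2 scale (SE 0.18, adjusted p = 0.0194), with 40.3 to 66.7 FPKM in control and 30.0 to 39.1 in KD blastocysts. In morulae 1 of 11 tested fell, Cldn4, by 1.00 (SE 0.15, adjusted p = 0.00436), with 19.9 to 27.8 FPKM in control and 9.68 to 11.8 in KD morulae. The median log2 difference of the list in blastocysts was 0.0081, and its summed FPKM lay at 277 to 598 in control and 348 to 594 in KD embryos. Genes of the list with a mean of 10 FPKM or more in a group were Ocln, Cldn4, Cldn6, Cldn7, F11r, Cgn, Cdh1 and Prkcz. Those among them that did not pass had log2 differences from -0.34 for Cdh1 to 0.36 for Cldn4 in blastocysts, and from -0.18 for Cldn7 to 0.79 for Cldn6 (adjusted p = 0.0515) in morulae.

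Of 10 markers of the trophectoderm, the tissue that carries this transport, all were tested in blastocysts. In KD embryos 3 fell, Krt18, Tspan8 and Elf5, beside 19.8% of all genes tested, and 2 rose, Tfap2c and Krt7, beside 16.7%. Elf5 passed the filter only through the control and Krt7 only through KD embryos. Their summed FPKM was 1813, 2114, 1816 and 1495 in control blastocysts 1, 4, 5 and 6 and 801, 930.4, 984 and 787 in KD blastocysts of the same numbers, so the groups did not overlap. The most abundant was Krt18 in both, with means of 799 and 389.7 FPKM, and 0 of the 10 markers were at 0 in all libraries of either group. Cdx2, a transcription factor of the trophectoderm, measured 0.863 to 2.66 FPKM in control and 1.11 to 3.07 in KD blastocysts. In morulae limma called 0 of 7 tested, and the summed FPKM overlapped, at 236 to 268 in control and 198 to 245 in KD embryos.

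Of 6 markers of the inner cell mass and epiblast, 5 were tested in blastocysts and 1 fell in KD embryos, Tdgf1, with a log2 difference of -2.28 (SE 0.23, adjusted p = 3.00e-05). Their summed FPKM overlapped in blastocysts, at 184 to 299 in control and 152 to 296 in KD embryos. In morulae 5 were tested, of which Nanog fell by 2.23 on the log2 scale (SE 0.37, adjusted p = 0.00647) and Klf2 had a log2 difference of 0.71 (SE 0.18, adjusted p = 0.0278) and rose. The summed FPKM of the list did not overlap there, at 202 to 257 in control and 101 to 161 in KD morulae. The most abundant was Nanog in control morulae, with a mean of 106 FPKM, and Tdgf1 in KD morulae, with 71.6, and 0 of the 6 were at 0 in all libraries of either group.

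Of 4 genes that mark the 2-cell stage, 2 were tested in blastocysts and 1 rose in KD embryos, Zfp352, with a log2 difference of 1.56 (SE 0.29, adjusted p = 0.00157), which passed the filter only through KD embryos, where it was high. Their summed FPKM was 1.87, 1.67, 0.180 and 0.857 in control blastocysts 1, 4, 5 and 6 and 2.58, 7.58, 3.10 and 8.91 in KD blastocysts of the same numbers, without overlap. Control 2-cell embryos held 181 to 273 FPKM of them. The most abundant was Tcstv1 in control blastocysts, with a mean of 0.712 FPKM, and Zfp352 in KD blastocysts, with 3.28, and 0 of the 4 were at 0 in all libraries of either group. In morulae limma called 0 of 2 tested, and the sums of control and KD embryos overlapped. Of 5 markers of primitive endoderm, 1 was tested in morulae and 1 in blastocysts, Gata6 in both, and of 5 of oocytes 2 and 1 were, of which limma called 0. In blastocysts their summed FPKM overlapped, at 10.3 to 20.5 in control and 10.2 to 37.4 in KD embryos for the first list and 1.71 to 2.17 and 1.97 to 4.76 for the other. The part of any of these markers in the differences of the transport genes was not tested.

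Of 6 cumulus cell markers, Ptx3 and Fshr were listed at 0 in every library, and the most abundant, Amhr2, measured 3.82 to 6.34 FPKM in control and 4.02 to 6.38 in KD blastocysts. The summed FPKM of 4 sperm markers lay at 0.489 to 1.19 and 0.291 to 1.33 in these groups.

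For the members tested in blastocysts other than Atp1b1, the 2 genes with the most similar levels were found by the Pearson correlation of log2(FPKM + 1) over 22 libraries, which fall into 3 stages. These were Reep1 (r = 0.994) and Aup1 (r = 0.994) for Aqp3, Acsl5 (r = 0.977) and Gm36287 (r = 0.974) for Aqp8 and Pgam1-ps2 (r = 0.971) and Eif4h (r = 0.960) for Aqp9. For the pump subunits they were Sdad1 (r = 0.887) and Taf6 (r = 0.870) for Atp1b3 and Gask1b (r = 0.984) and Dkk1 (r = 0.978) for Atp12a. Between members, r was 0.888 for Atp1b1 and Atp12a, 0.883 for Aqp3 and Aqp9, and -0.561 for Aqp8 and Atp1b3.

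In GRCm38, the assembly of mm10, Aqp8 (ENSMUSG00000030762.11) lies on the plus strand of chromosome 7 from 123462291 to 123468004. Aqp3 (ENSMUSG00000028435.8) lies on the minus strand of chromosome 4 from 41092722 to 41098183, and Atp1b1 (ENSMUSG00000026576.12) on the minus strand of chromosome 1 from 164437109 to 164458355. The exons of Atp1b1 share 575 bases with Nme7 on the opposite strand. Whether strand was used in quantification is not given in the sources used here, so the values of Atp1b1 are uncertain to that extent. Nme7, named after its values were seen, lay at 3.56 to 6.66 FPKM in control morulae against 0.271 to 1.01 with KD, and at 6.60 to 16.7 in control blastocysts against 0.763 to 2.53 with KD. Its part in the values of Atp1b1 was not tested.

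RefSeq promoters (GRCm38.p6) were matched for 8 of the 9 members, all but Atp12a. The 250 bases before the start are printed 5′ to 3′ for Aqp8 and Atp1b1, which rose together from control morulae to control blastocysts, and for Aqp3, whose KD effect between stages had the opposite sign. Capitals mark matches on either strand to CATTCC, a motif of TEAD factors, TGATAA, a motif of factors of the GATA family, GCCNNNGGC, a motif of AP-2 factors, or TATAAA, the core of the TATA box, and no matches overlapped.
Aqp8, chr7:123462044-123462293, plus strand: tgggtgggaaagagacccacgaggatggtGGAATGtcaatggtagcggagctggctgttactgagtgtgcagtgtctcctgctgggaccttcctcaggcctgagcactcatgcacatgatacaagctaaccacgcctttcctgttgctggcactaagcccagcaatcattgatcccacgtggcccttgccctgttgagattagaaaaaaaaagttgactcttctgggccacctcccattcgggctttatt
Atp1b1, chr1:164458356-164458605, minus strand: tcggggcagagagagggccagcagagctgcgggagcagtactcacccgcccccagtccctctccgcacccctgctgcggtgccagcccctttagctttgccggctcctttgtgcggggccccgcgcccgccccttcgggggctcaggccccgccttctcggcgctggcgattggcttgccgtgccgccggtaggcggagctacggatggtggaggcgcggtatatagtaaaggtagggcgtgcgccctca
Aqp3, chr4:41098184-41098433, minus strand: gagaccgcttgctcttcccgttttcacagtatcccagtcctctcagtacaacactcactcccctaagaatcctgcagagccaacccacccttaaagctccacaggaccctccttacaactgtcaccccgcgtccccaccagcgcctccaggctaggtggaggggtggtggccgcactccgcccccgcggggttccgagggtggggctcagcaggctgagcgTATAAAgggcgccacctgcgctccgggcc
The Aqp8 window held 1 match, to CATTCC read on the other strand, and the Aqp3 window held 1 match, to TATAAA. The Atp1b1 window held 0 matches to these letters. Over all 32851 promoters of this length, CATTCC was found in 12.6%, TGATAA in 7.94%, GCCNNNGGC in 13.7% and TATAAA in 12.4%. The dinucleotide CG occurred 5 times before Aqp8, 14 times before Aqp3 and 24 times before Atp1b1, with a median of 6 over all promoters.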

How the data were processed

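RNA-seq libraries were prepared from pooled embryos, 22 in all. The authors aligned reads to mm10 with STAR and deposited FPKM from StringTie 2.1.4. Values at low FPKM of single-exon genes lay within 0.05 of whole steps in only 16.8% to 28.1% of cases, so reads were not recovered and depth is unknown. FPKM were divided by a median-of-ratios factor per library, and log2(FPKM + 1) was tested with limma 3.58.1 (lmFit, eBayes with a trend) in R 4.3.3, with Benjamini-Hochberg adjustment. KD was compared with control within a stage. Both comparisons of morulae with blastocysts, and the interaction, came from 1 fit of 4 groups. Steps were tested on simulated data. The study speaks of repeated experiments in general, but whether each library came from a separate collection of embryos is not given in the sources used here, so p-values measure only the spread between these libraries, which may be technical. Members and lists were chosen with earlier results of these data known. Listed transport and junction genes were named where a group mean reached 10 FPKM or, per list, for the widest called KD difference; markers and other genes named besides were chosen after their values were seen. Some results that these rules would name are not reported here. Alternatives were a pseudocount of 0.1, no filter, FPKM as deposited, quantile normalization, no trend, an added log2 threshold of 1, each library left out, a replicate block, and a batch by range of replicate numbers. Figures were drawn with matplotlib 3.10.9.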

Additional observations from a re-analysis of the deposited data

Results flagged for a closer look

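Of the 6 members tested, the KD effect differed between morulae and blastocysts by the interaction test for Aqp3, which was higher in blastocysts beside 5.43% of all genes tested, and for Atp1b1, which was lower beside 6.32%. The blastocyst effect minus the morula effect was 1.33 on the log2 scale for Aqp3 and -1.14 for Atp1b1. For Aqp8 it was -2.42, a value that restates the difference within blastocysts, since Aqp8 was listed at 0 in all morulae. The call of Aqp3 was lost with no filter on low FPKM (adjusted p = 0.104) and without any 1 of 5 libraries, where the adjusted p reached 0.0752. That of Atp1b1 was lost with the replicate number as a block, at -1.02 (adjusted p = 0.0583). Each member was also looked at in every group of 4 libraries where its median reached an FPKM of 1. In 0 of these 19 cases did the highest or lowest library stand apart from the others on the log2(FPKM + 1) scale, where chance gives about 1 in 20.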

How the results depend on the processing

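In morulae the number of members called was 1, and it was 0 with no filter on low FPKM, with FPKM as deposited and with an added threshold of 1 on the log2 difference, 2 with a batch set by low and high replicate numbers, and 0 to 1 with 1 library left out. With the added threshold it was 1 in place of 4 in blastocysts, 3 in place of 5 from control morulae to control blastocysts, and 0 in place of 5, Aqp8 included, from KD morulae to KD blastocysts, where it was 3 to 5 with 1 library left out. With no filter it was 6 in place of 3 from control 2-cell embryos to control morulae, where Atp12a, Slc9a3 and Cftr, untested with the filter, were added to Aqp3, Aqp9 and Aqp11. The added threshold removes calls by its construction. For the other changes the cause was not tested.

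Log2 differences that changed sign had not passed the test. For Atp1b1 in 2-cell embryos the KD difference was 0.0012 with a pseudocount of 0.1, 0.012 with quantile normalization and 0.024 with the batch. For Aqp9 it was -0.025 in 2-cell embryos and -0.00096 in blastocysts with FPKM as deposited. For Atp1b3 from control 2-cell embryos to control morulae it was -0.69 with quantile normalization. With 1 library left out, the range was -0.037 to 0.11 for Aqp9, -0.13 to 0.16 for Atp1b1 and -0.16 to 0.011 for Atp1b3 in 2-cell embryos, -0.24 to 0.18 for Aqp9 in blastocysts, and -0.093 to 0.079 for Atp1b3 from control 2-cell embryos to control morulae.

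Same-numbered control and KD libraries did not deviate together throughout (r from -0.111 to 0.354 in blastocysts). Nor did every library correlate best with its own number, so numbers were not taken to pair them. In morulae r was 0.0944 to 0.181 between control and KD replicates 1 and 2. For control 7 and 8 with KD 6 it was 0.185 and 0.347, and between low and high numbers -0.278 to -0.0945. Deviations were taken from group means, so a positive r with some libraries of a group forces a negative r with others. In 2-cell embryos KD 1 had 0.209 and 0.205 with control 1 and 2, and -0.237 and -0.192 with control 4 and 5. KD 4 had -0.168, -0.196, 0.214 and 0.163 with control 1, 2, 4 and 5, and KD 2 had -0.0211 to 0.0146. In blastocysts control 1 had 0.0860, 0.401, -0.381 and -0.0438 with KD 1, 4, 5 and 6. No label names a batch, so the split by low and high replicate numbers is only an alternative setting. With the replicate number as a block, the members called were 0 in place of 1 in morulae and 3 in place of 5 from KD morulae to KD blastocysts, where Aqp3 (adjusted p = 0.0885) and Aqp8 were not called. From control morulae to control blastocysts the block ended the call of Atp1b3 (adjusted p = 0.117) and Aqp3 passed, at -0.86 (adjusted p = 0.0378). For the interaction the block ended the call of Atp1b1, at -1.02 (adjusted p = 0.0583). It changed no other call of a member. The KD difference with the block was 0.16 for Atp1b1 in 2-cell embryos and -0.072 for Aqp9 in morulae.

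All genes called in morulae numbered 1458, against 412 with no filter, 387 with the added threshold and 551 to 1744 with 1 library left out. With the added threshold they were 1626 in place of 4321 in blastocysts, 3076 in place of 7078 from control morulae to control blastocysts, 1691 in place of 4841 from KD morulae to KD blastocysts, and 972 in place of 1495 for the interaction, which was 988 with no filter and 962 to 1722 with 1 library left out. The depth in reads is unknown and limits the genes under 1 FPKM.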
